A study of Mus musculus with 3 samples.

Results

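The 9 genes described here encode hormone receptors of inguinal white adipose tissue: the steroid receptors Esr1, Pgr, Nr3c1 and Nr3c2, the pituitary hormone receptors Prlr and Ghr, the thyroid hormone receptors Thra and Thrb, and the insulin receptor Insr. They were taken by symbol and are 9 of the 32285 genes in the count matrices, and all 9 were detected. The data are single-cell RNA sequencing (10x Genomics) of the stromal vascular fraction (SVF), the cells left when lipid-laden adipocytes are removed from digested fat, of 4-week-old mice; dead cells and Cd45-positive immune cells had been sorted out. There were 3 libraries, 1 for each genotype: Wild-type, Mgp-KO (deletion of the matrix Gla protein gene Mgp in the whole body) and Pd-KO (floxed Mgp deleted by a Cre recombinase that is driven by Pdgfra, a gene of stromal progenitor cells). Each library pooled inguinal fat from several mice of both sexes, and no library of floxed mice without Cre was analysed here. With 1 library per genotype no difference between genotypes could be tested, so the report gives values and 95% intervals that cover counting error only.

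Barcodes with at least 2000 UMIs (unique molecular identifiers, each 1 counted RNA molecule) and at most 10% mitochondrial UMIs were kept as cells, 10511 in Wild-type, 12575 in Mgp-KO and 8819 in Pd-KO, with median depths of 12802, 6445 and 8269 UMIs. Mgp itself stood at 534, 1.92 and 0.621 CPM (its UMIs scaled to the total UMIs) in the stromal cells of Wild-type, Mgp-KO and Pd-KO, so the target gene followed the labels. Between 35 and 40 cell barcodes were shared by any pair of libraries, at most 0.42% of a library. The headers of the matrices named Cell Ranger 4 for Wild-type and 7.1.0 for both knockouts, and genes with a long genomic span were higher in both knockout libraries: the median log2 ratio over Wild-type in stromal cells was -0.16 (Mgp-KO) and -0.28 (Pd-KO) in the shortest quintile of genes and 1.09 and 1.32 in the longest quintile. Software version and genotype cannot be told apart in these comparisons. For that reason the pattern of each receptor across cells of the same library is given first, and ratios between genotypes are set beside those of genes of similar span. Levels within a knockout library may differ with span as well, which was not tested.

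Steroid and thyroid hormone receptors are nuclear proteins that bind a hormone which has entered the cell and then switch genes on or off, whereas the receptors for prolactin, growth hormone and insulin sit in the cell membrane and signal through kinases. In adipose tissue glucocorticoids and insulin promote the formation of fat cells, growth hormone favours the breakdown of stored fat, and estrogen shapes where fat is laid down. In the female mouse the inguinal fat pad also holds the mammary gland, whose hormone-sensing luminal cells carry the estrogen, progesterone and prolactin receptors.

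By the GENCODE M21 annotation of GRCm38 the spans of the 9 genes differ widely. Esr1 (chr10:4611593-5005614, plus strand) covers 394 kb, Thrb (chr14:17660261-18038090, plus strand) 378 kb, and Nr3c2 (chr8:76899442-77245012, plus strand) 346 kb. Ghr (chr15:3317760-3583492, minus strand) covers 266 kb, Prlr (chr15:10177238-10349180, plus strand) 172 kb, and Insr (chr8:3122061-3279617, minus strand) 158 kb. Nr3c1 covers 109 kb, Pgr (chr9:8899833-8968611, plus strand) 68.8 kb, and Thra (chr11:98740638-98769006, plus strand) 28.4 kb. All but Pgr and Thra lie in the longest quintile of genes, and Thra is the shortest of the 9. Thra shares its 3 prime end with Nr1d1, a clock gene on the opposite strand that had 4611 UMIs in cells, so without knowing how strand was used reads of the pair cannot be assigned with certainty.

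The stretches just before the transcription starts of Pgr and Prlr are shown because the differences between stroma and epithelium described later turn on these genes. They are the 250 bases upstream of a RefSeq start in GRCm38.p6, 5 prime to 3 prime on the gene's strand, and capitals mark the matches found to TATAAA and CCAAT on either strand. Pgr is read at chr9:8899583-8899832 and Prlr, for the first of its 3 annotated starts, at chr15:10176988-10177237.
Pgr: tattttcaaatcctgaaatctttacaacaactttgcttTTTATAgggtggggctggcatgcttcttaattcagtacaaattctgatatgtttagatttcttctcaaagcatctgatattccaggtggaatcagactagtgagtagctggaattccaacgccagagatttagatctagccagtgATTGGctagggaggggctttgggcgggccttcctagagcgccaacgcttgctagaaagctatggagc
Prlr: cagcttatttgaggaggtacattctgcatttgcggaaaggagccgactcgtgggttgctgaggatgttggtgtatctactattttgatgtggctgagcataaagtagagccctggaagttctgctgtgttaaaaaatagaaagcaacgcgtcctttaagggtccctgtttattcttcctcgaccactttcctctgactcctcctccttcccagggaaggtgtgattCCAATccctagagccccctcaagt
The Pgr window holds TTTATA, 212 bases before the start, and ATTGG, 67 bases before it, while the Prlr window holds CCAAT 24 bases before its start. TATAAA occurs in 12.4% and CCAAT in 33.8% of all 32851 windows of that length. Neither printed window holds AGGTCA, the nuclear receptor core site (in 14.0% of all windows), AGAACA, the glucocorticoid receptor site (in 16.1%), or the full palindromic estrogen response element (in 0.0639%). These matches describe letters in a window and not sites of binding. Windows were present for 6 of the 9 genes.

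Cells were grouped into classes by clustering all libraries together without the 9 receptors and their pathway genes as features, and classes were named by marker genes. The stromal classes, all Pdgfra-positive, were Pi16 progenitor-like cells, Ccn5 fibroblast-like cells, preadipocyte-like cells (Icam1, Cd36), Areg-like cells (adipogenesis-regulatory, with F3 and Gdf10), Fgf10 stromal-like cells, Hmcn1 stromal-like cells, and other stromal cells. Together they made up 68.4%, 87.5% and 79.2% of the cells of Wild-type, Mgp-KO and Pd-KO. Beside them stood early adipocyte-like cells (187, 76 and 52 cells), endothelial-like cells with Gpihbp1 or Plvap, smooth muscle-like and pericyte-like cells, and luminal epithelial-like cells with Upk3a (288, 470 and 104 cells) or Wfdc18 (81, 128 and 23 cells). Levels are given as CPM, the UMIs of a gene scaled to the total UMIs of its class in the library, in the order Wild-type, Mgp-KO, Pd-KO. They are not corrected for length, so they are compared within a gene and not between genes. Clusters of the same class also differed within a knockout library. In Mgp-KO the preadipocyte-like clusters had 267 and 81.8 CPM of Esr1 and 334 and 83.7 of Ghr, but 128 and 136 of Thra. In Wild-type they had 85.6 and 65.8 of Esr1. In Pd-KO the Pi16 clusters had 546, 539 and 104 CPM of Esr1, 236, 499 and 66.8 of Ghr and 35.4, 53.1 and 5.50 of Thrb. Of Thra, the gene of shortest span, they had 175, 166 and 167. The part of span in these differences was not tested. Class levels in the knockouts therefore depend on the mix of clusters, whose part was not tested. In droplet data free RNA reaches every cell, and its level was read from barcodes of 10 to 100 UMIs.

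**Figure D1:**
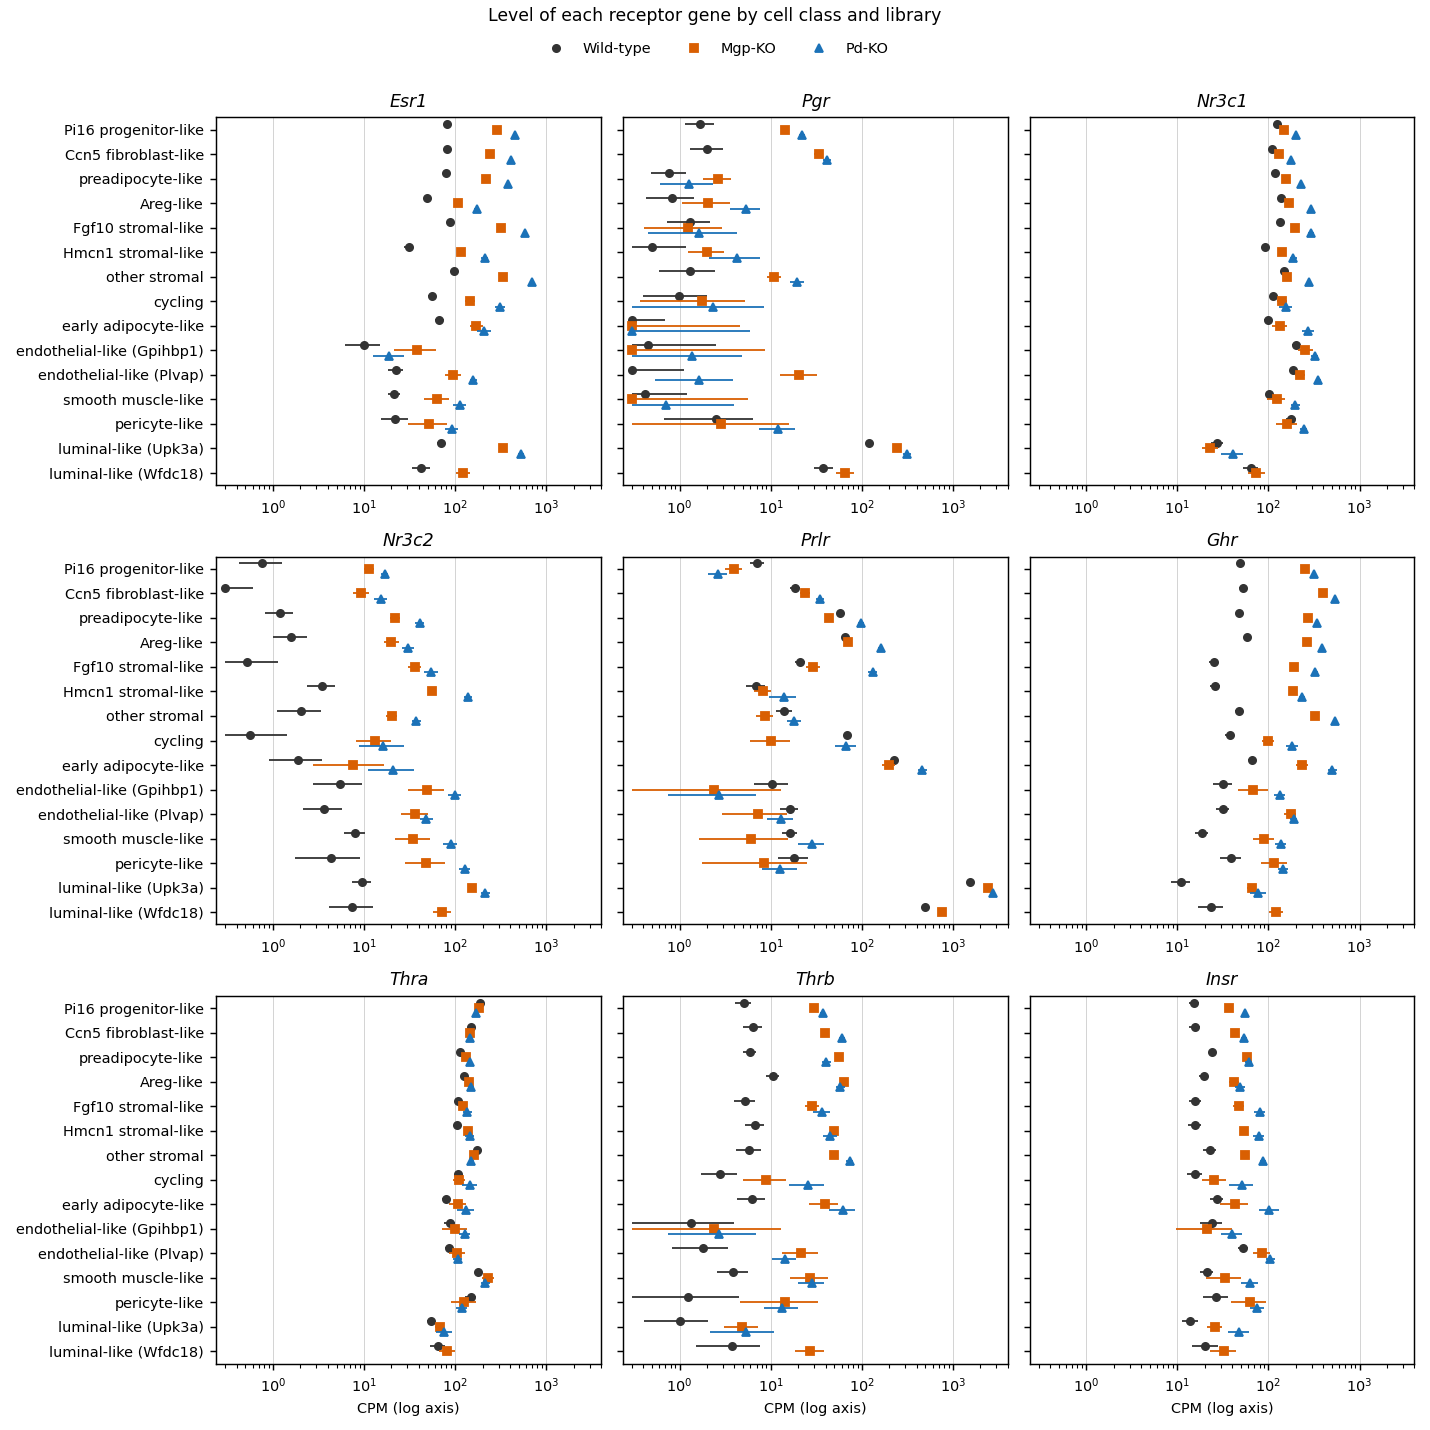
Level of each receptor gene (CPM, log axis) in each cell class, with 1 symbol per library and bars for 95% counting intervals; values under 0.3 are drawn at 0.3, and classes with under 50 cells in a library are not drawn. Prlr and Pgr peak in the luminal classes, Nr3c1 is lowest in the Upk3a luminal class, and Esr1, Ghr and Thrb are low in Gpihbp1 endothelial-like cells relative to stromal cells.

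Esr1, the estrogen receptor alpha, was a gene of the stroma and of the Upk3a luminal cells. Its level in all stromal cells was 73.3, 242 and 438 CPM in Wild-type, Mgp-KO and Pd-KO. Relative to all stromal cells of the same library it ranged from 1.34 to 1.58 in the other stromal cells, from 1.18 to 1.33 in Fgf10 stromal-like cells and from 0.953 to 1.39 in Upk3a luminal cells. The first of these classes did not overlap the second, but the luminal range overlapped both. Within the other stromal cells 1 cluster had 125, 510 and 1399 CPM of Esr1, and the largest cluster had 98.1, 290 and 473. The first of these clusters also had 74.5, 579 and 1296 CPM of Ghr, but 217, 160 and 152 of Thra. Pi16 progenitor-like (81.6, 289 and 459), Ccn5 fibroblast-like (80.8, 242 and 413) and preadipocyte-like cells (80.3, 219.9 and 377) lay close together. Areg-like cells had 48.8, 106 and 173 and Hmcn1 stromal-like cells 31.0, 115 and 211 CPM, both below the preadipocyte-like cells as whole classes in all 3 libraries. By cluster this order was not kept in Mgp-KO and Pd-KO. There an Areg-like cluster had 126 and 229 and an Hmcn1 cluster 173 and 295 CPM, against 81.8 and 141 in a preadipocyte-like cluster. Pi16 clusters had 546, 539 and 104 CPM in Pd-KO. The part of the cluster mix in the class levels was not tested. Vessels had less: Gpihbp1 endothelial-like cells had 9.89, 37.8 and 19.0 CPM, and their relative level of 0.0434 to 0.156 did not overlap that of Plvap endothelial-like, smooth muscle-like or pericyte-like cells. Within the smooth muscle-like class the larger cluster (1.65% called doublets) had 7.48, 22.9 and 27.0 CPM, close to the Gpihbp1 cells. The other (62.8%) had 54.0, 173 and 318. The Plvap clusters had 10.6, 46.4 and 90.2 (9.66%) and 37.9, 151 and 238 (35.2%). The part of doublets in this separation was not tested. The level in Gpihbp1 endothelial-like cells was below that of free RNA, 33.9, 169.5 and 416 CPM, in every library.

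Pgr, the progesterone receptor and a classical target of estrogen, marked the Upk3a luminal cells in all libraries and a part of the stroma in both knockouts. In Upk3a luminal cells it stood at 119, 246 and 312 CPM. After each cell was thinned to 2000 UMIs, 17.7%, 33.2% and 37.5% of these cells had a Pgr UMI (77.4%, 74.5% and 80.8% unthinned). Wfdc18 luminal cells had 37.9, 65.4 and 57.1 CPM, less than the Upk3a cells of the same library each time.

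In Wild-type stroma Pgr was near the level of free RNA (0.870 CPM, 1 UMI): Pi16 progenitor-like cells had 1.68 CPM (33 UMIs) and Ccn5 fibroblast-like cells 2.02 (24 UMIs). In Mgp-KO the same classes had 14.4 (12.9 to 16.1) and 33.6 (30.2 to 37.1), and in Pd-KO 22.2 (20.5 to 24.0) and 41.3 (37.4 to 45.4) CPM. Ccn5 fibroblast-like cells were therefore the stromal class with the most Pgr in all 3 libraries, and the intervals of the pair overlapped in Wild-type and were apart in both knockouts. Without barcodes called as doublets its level was 2.16, 34.7 and 42.7. The thinned share of Ccn5 fibroblast-like cells with a Pgr UMI was 0% in Wild-type (at most 0.477% by the exact binomial interval), 4.50% in Mgp-KO and 5.31% in Pd-KO. In Plvap endothelial-like cells, taken as background, it was 0% in every library, with upper limits of 0.741%, 2.09% and 0.881% at median depths of 7918, 4115 and 5435 UMIs, against 15094, 6277 and 10124 in the Ccn5 class.

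The other stromal cells as a class had 1.30, 11.02 and 19.6 CPM of Pgr, close to the Pi16 progenitor-like cells. Within them 1 cluster had 2.98, 21.02 and 66.6 CPM, the largest had 1.16, 8.40 and 4.51, and the smallest had 0. Clusters within a class differed: in the Pi16 class 1 cluster (349, 1176 and 1090 cells) had 3.97, 26.8 and 44.8 CPM, and the others had 0.820 and 0.864 in Wild-type, 7.71 and 4.33 in Mgp-KO and 6.57 and 1.65 in Pd-KO. That cluster made up a larger part of the class in the knockouts, and its part in the level of the class was not tested. In the Ccn5 class 1 cluster (248, 731 and 575 cells) had 3.73, 49.9 and 52.9 CPM. The other (523, 891 and 405 cells) had 1.05, 13.5 and 15.6. The part of this mix in the level of the Ccn5 class was not tested. In Pd-KO both Ccn5 clusters were below the 66.6 CPM of the cluster of other stromal cells. The remaining stromal classes had less Pgr. Preadipocyte-like cells had 0.773, 2.62 and 1.28 CPM, and Fgf10 stromal-like cells 1.31, 1.25 and 1.65. No Pgr UMI was found in early adipocyte-like cells of any library, where a count of 0 allows up to 0.566, 3.78 and 4.77 CPM. Free RNA held 41.7 and 26.6 Pgr CPM in Mgp-KO and Pd-KO (33 and 89 UMIs). In Mgp-KO this was above every stromal class, and in Pd-KO above every stromal class but the Ccn5 fibroblast-like cells. Within Mgp-KO the level ranged from 1.25 CPM in Fgf10 stromal-like to 33.6 in Ccn5 fibroblast-like cells. Prlr, another gene of the luminal cells, was at 3.93 and 2.62 CPM in the Pi16 progenitor-like cells of the knockouts against 2452 and 2726 in their Upk3a luminal cells. The part of free RNA in stromal Pgr was not tested. The stromal Pgr UMIs were spread over 91, 482 and 515 cells, with at most 7, 16 and 28 from 1 cell. Plvap endothelial-like cells of Mgp-KO had 20.7 CPM, but these were 20 UMIs from 4 cells, 12 of them from 1 cell.

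Nr3c1, the glucocorticoid receptor, was present in every class and, by whole classes, highest in endothelium. Gpihbp1 endothelial-like cells had 201, 255 and 322 and Plvap endothelial-like cells 187, 223 and 352 CPM, against 122, 152 and 219 in stromal cells. Relative to stroma the pair ranged from 1.47 to 1.68 and overlapped each other but not the next class, Fgf10 stromal-like cells (1.08 to 1.35). Clusters did overlap. The Plvap clusters had 223, 248 and 473 (9.66% called doublets) and 140, 194 and 211 CPM (35.2%). A cluster of other stromal cells had 203, 179 and 368, and an Areg-like cluster had 356 in Pd-KO. The part of doublets and of the cluster mix was not tested. Luminal cells were at the other end, with 27.3, 22.9 and 40.4 CPM in Upk3a and 64.1, 73.9 and 61.4 in Wfdc18 cells. Nr3c1 thus ran opposite to Pgr and Prlr within the epithelium, being lower in the Upk3a than in the Wfdc18 cells of all 3 libraries. In Pd-KO this rests on only 23 Wfdc18 cells.

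Nr3c2, the mineralocorticoid receptor, which also binds glucocorticoids, was above the stromal level in endothelium, as was Nr3c1, but did not share its low luminal level. It was highest relative to stroma in Upk3a luminal cells, at 9.48, 153 and 215 CPM, or 6.98 to 7.60 times the stromal level of the same library, with no overlap with the next class. Wfdc18 luminal cells had 7.47, 72.2 and 109.7. Mural and endothelial cells came next, with 4.36, 48.3 and 127 CPM in pericyte-like, 5.39, 49.6 and 99.2 in Gpihbp1 endothelial-like and 8.01, 34.9 and 88.9 in smooth muscle-like cells, and these overlapped in their relative levels. Free RNA held 7.83, 44.3 and 78.4 CPM of Nr3c2. That is above the pericyte-like and Gpihbp1 endothelial-like cells of Wild-type and the smooth muscle-like cells of Mgp-KO. The part of free RNA in these vessel levels was not tested. Within the stroma the Hmcn1 stromal-like cells as a class stood apart with 3.42, 55.8 and 139.8 CPM, against 1.25, 21.99 and 29.4 in all stromal cells. By cluster this was not so in Wild-type. There the Hmcn1 clusters had 2.11 and 4.61 CPM, and clusters of other stromal cells had 8.94 (109 cells) and 13.9 (37 cells). Free RNA of Wild-type, at 7.83, was above the Hmcn1 class too. Ccn5 fibroblast-like cells had the least, 0.168 (2 UMIs), 9.38 and 15.2. The Upk3a luminal cells were thus above, and the Ccn5 fibroblast-like cells below, the stromal level in every library, although the stromal levels themselves differed more than 10-fold. Female cells made up 87.2%, 96.9% and 79.1% of the sex-called Hmcn1 stromal-like cells, more than in the stroma as a whole (47.5%, 79.6% and 43.2%). Male cells of this class had 3.27 CPM (4 UMIs, 65 cells) in Wild-type and 178 (50 cells) in Pd-KO. All male stromal cells had 0.857 and 31.4 CPM. Mgp-KO held only 36 male cells of this class, and no value is given for them. The part of sex in the level of this class was not tested.

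Prlr, the prolactin receptor, had a steep pattern across classes. Upk3a luminal cells held 1559, 2452 and 2726 CPM, and 86.5%, 95.7% and 96.2% of them had a Prlr UMI after thinning. Wfdc18 luminal cells held 499.7, 765 and 904. Early adipocyte-like cells came next, with 225 (32.1% of cells), 198 (26.3%) and 463 (48.1%), or 6.87 to 11.7 times the stromal level, and overlapped neither the Wfdc18 luminal cells above nor the Areg-like cells below. Gpihbp1 endothelial-like cells, which served as background, had 10.3, 2.36 and 2.72 CPM (1.78%, 0.917% and 1.11% of cells) at median depths of 5105, 3232 and 3342 UMIs, against 26611, 9510 and 11906 in the early adipocyte-like cells.

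Within the stroma Prlr was, by whole classes, highest in Areg-like cells in all 3 libraries. By cluster the Areg-like cells of Wild-type had 69.5 and 59.6 CPM and the preadipocyte-like cells 68.9 and 26.8. Areg-like cells had 66.3, 70.7 and 161 CPM and preadipocyte-like cells 57.6, 44.0 and 97.4. Ccn5 fibroblast-like cells had 18.5, 23.8 and 35.0, and Pi16 progenitor-like cells 7.09, 3.93 and 2.62, close to the endothelial background. Free RNA carried 42.6, 139.2 and 130.1 CPM, more than Pi16 progenitor-like cells in each library. In Mgp-KO it was above every stromal class. The part of free RNA in stromal Prlr was not tested. Fgf10 stromal-like cells had 21.1, 29.3 and 132 CPM and were the stromal class in which the libraries differed most.

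Ghr, the growth hormone receptor, was spread through the stroma. Ccn5 fibroblast-like cells had 52.0, 399 and 539, early adipocyte-like cells 66.2, 236 and 503, and all stromal cells 45.3, 276 and 384 CPM; the relative levels of the first pair overlapped. Upk3a luminal cells had 10.9, 65.9 and 77.7, or 0.203 to 0.241 times the stromal level, the lowest of all classes. Ghr and Prlr, whose products belong to the same family of cytokine receptors, were therefore at opposite ends in the Upk3a cells.

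Thra, which encodes the widely expressed thyroid hormone receptor alpha, varied least between libraries. It stood at 135, 153 and 157 CPM in stromal cells, 177, 230.4 and 215 in smooth muscle-like cells and 187, 183 and 169.7 in Pi16 progenitor-like cells. Upk3a luminal cells had 54.7, 67.6 and 75.5. For Thrb, the beta receptor, Areg-like cells had 10.5, 63.8 and 58.2 CPM, all stromal cells 6.42, 43.4 and 47.7, and Upk3a luminal cells 1.01, 4.80 and 5.34. Early adipocyte-like cells were near the stromal level of Thrb, with 6.22, 39.1 and 62.1 CPM. Neuron-like cells, read in Wild-type only (93 cells), ranked first relative to stroma for both genes, with 19.8 CPM of Thrb and 300 of Thra. Their median depth was 3159 UMIs, so the Thrb value and its rank rest on few UMIs. The relative levels of Areg-like cells (1.22 to 1.63) overlapped those of other stromal cells, whereas the Upk3a luminal cells (0.110 to 0.157) lay below every stromal class.

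Insr, the insulin receptor, was, by whole classes, highest in Plvap endothelial-like cells. These had 53.2, 84.9 and 105 CPM, against 18.8, 46.9 and 60.7 in stromal cells, and their relative level of 1.73 to 2.82 overlapped no other class. By cluster the Plvap cells had 49.2, 89.0 and 101 CPM (9.66% called doublets) and 58.4, 80.1 and 110 (35.2%). A cluster of other stromal cells had 46.2, 77.8 and 153, above both in Pd-KO. The part of doublets and of the cluster mix was not tested. Gpihbp1 endothelial-like cells had 23.8, 21.2 and 39.4, less than the Plvap cells of each library. Early adipocyte-like cells had 27.0, 42.9 and 102 CPM and overlapped several stromal and mural classes.

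The next question was how the receptors differed between the knockout libraries and Wild-type. In stromal cells the log2 ratios of Mgp-KO over Wild-type were 1.72 (Esr1), 3.30 (Pgr), 0.31 (Nr3c1), 4.14 (Nr3c2), -0.66 (Prlr), 2.61 (Ghr), 0.18 (Thra), 2.76 (Thrb) and 1.32 (Insr). Those of Pd-KO over Wild-type were 2.58, 4.06, 0.84, 4.56, 0.28, 3.08, 0.21, 2.89 and 1.69 in the same order. The comparisons share the Wild-type library, so their likeness is no repeat of a result. In each, 6 of the 9 genes were at least 2-fold higher and none was 2-fold lower; over all genes with at least 100 UMIs in the compared libraries 18.1% were 2-fold higher in Mgp-KO and 21.2% in Pd-KO (2.6% and 4.96% 2-fold lower). Among genes of 60 to 400 kb, as all the receptors but Thra are, the shares 2-fold higher were 45.1% and 53.6%.

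Set beside the 200 genes nearest in span, most of the ratios shrank. The median log2 ratio of those neighbours was 2.37 (Mgp-KO) and 2.69 (Pd-KO) for Esr1, 1.80 and 1.97 for Ghr, 2.22 and 2.49 for Thrb, and 1.10 and 1.34 for Insr, which left Esr1 at -0.65 and -0.11 relative to its neighbours. Pgr remained 2.74 and 3.35 and Nr3c2 1.99 and 2.10 above the neighbours, Ghr was 0.81 and 1.11 above, and Prlr was -2.10 and -1.41 relative to them. Thus 2 of 9 genes were 2-fold above their neighbours in Mgp-KO and 3 of 9 in Pd-KO, where 8.96% and 10.2% of all genes were, and 1 of 9 was 2-fold below in each, where 4.36% and 7.17% were. Nr3c1, at 0.31 and 0.84, was below the medians of 0.92 and 1.16 of genes of about 110 kb. The ratio of Nr3c2 rests on 128 UMIs in Wild-type stroma, and its interval was 3.88 to 4.41 in Mgp-KO and 4.30 to 4.83 in Pd-KO.

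**Figure D2:**
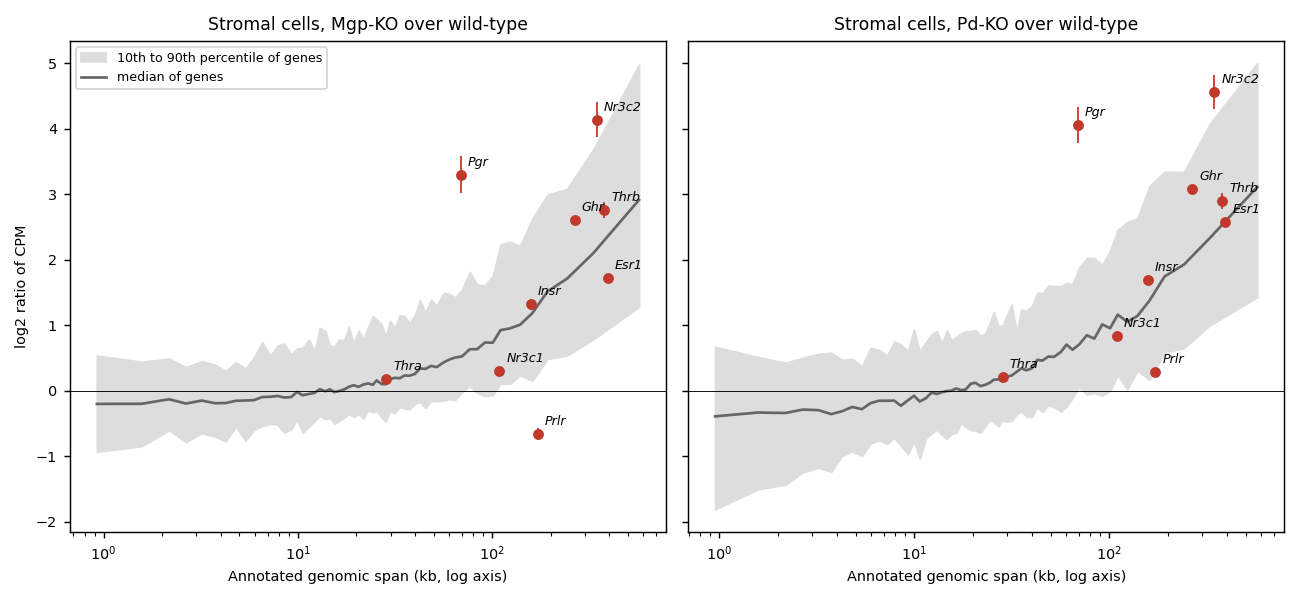
The log2 ratio in stromal cells (vertical axis, CPM) of each receptor gene against its genomic span (kb, log axis), for Mgp-KO and Pd-KO over Wild-type, with the running median of all genes. Pgr and Nr3c2 lie above the median of genes of their span, Prlr lies below it, and Esr1 lies at or under it.

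The ratio in stromal cells was also set against that in the Upk3a luminal cells of the same libraries, so that each gene was its own reference. Pgr differed: its log2 ratio in luminal cells was 1.05 in Mgp-KO and 1.40 in Pd-KO, lower than in stroma by 2.25 (interval 1.95 to 2.55) and 2.66 (2.34 to 2.98). With each stromal subset at the same weight the stromal ratios of Pgr were 2.16 and 2.67 instead of 3.30 and 4.06, so the gap to the luminal cells was smaller. Prlr in the pooled stroma differed the other way, since its luminal ratios were 0.65 and 0.81 and the stromal ratio minus the luminal one was -1.31 (-1.41 to -1.22) and -0.53 (-0.62 to -0.43). Stromal clusters were not alike in Pd-KO over Wild-type. Fgf10 stromal-like cells went from 21.1 to 132 CPM of Prlr. Areg-like clusters went from 69.5 and 59.6 to 162 and 159. The Pi16 clusters went from 5.51, 10.2 and 6.57 down to 1.76, 3.63 and 2.02. The part of the class mix in the pooled Prlr ratio was not tested. Nr3c2 did not differ between the classes within counting error, with luminal ratios of 4.02 and 4.50 and differences of 0.12 (-0.32 to 0.57) and 0.06 (-0.41 to 0.52). Ghr was alike, with differences of 0.01 (-0.35 to 0.38) and 0.25 (-0.18 to 0.68).

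Esr1 had a smaller ratio in stroma than in luminal cells, with differences of -0.54 (-0.69 to -0.39) in Mgp-KO and -0.34 (-0.52 to -0.17) in Pd-KO. The intervals are a normal approximation on the counts of single libraries and say nothing of mice. The summed level of 8 luminal marker genes in stromal cells was 50.5, 28.8 and 28.9 CPM in Wild-type, Mgp-KO and Pd-KO. The part of luminal RNA in stromal Pgr was not tested. The Pi16 progenitor-like class took 13.9%, 26.6% and 32.8% of cells. Within this class and within Ccn5 fibroblast-like cells the log2 ratios of Pgr were 3.10 and 4.06 in Mgp-KO and 3.72 and 4.35 in Pd-KO.

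**Figure D3:**
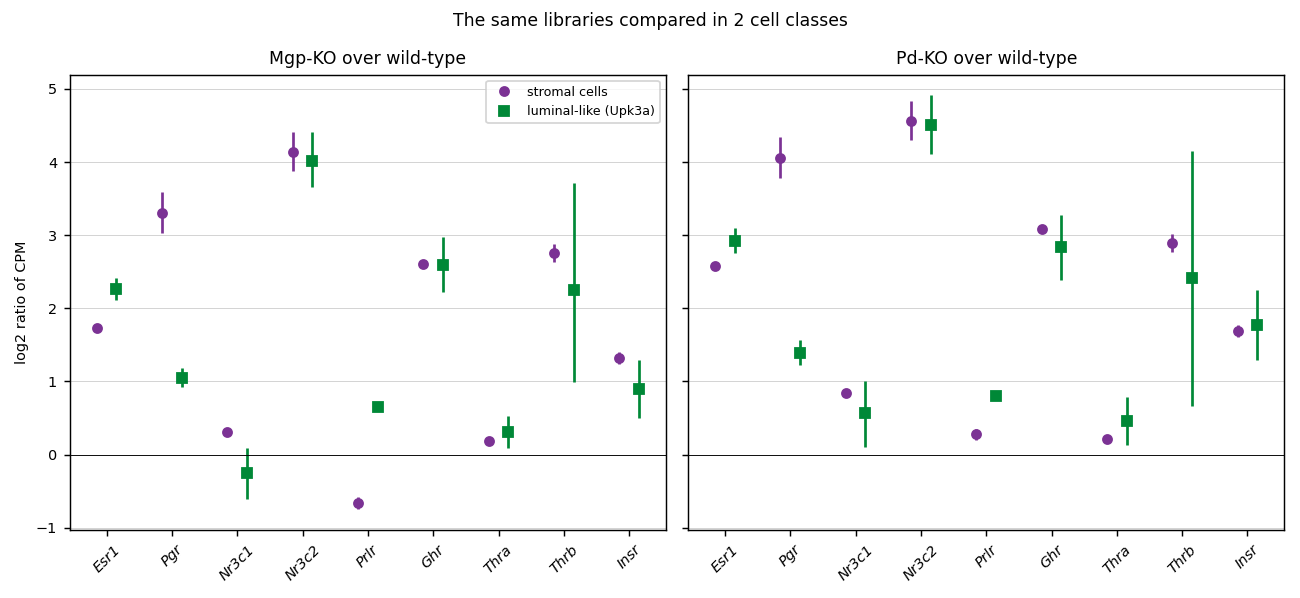
The log2 ratio of each receptor gene (knockout over Wild-type, CPM) in stromal cells and in Upk3a luminal cells of the same libraries, with 95% counting intervals. Pgr stands well higher in stroma than in luminal cells, Prlr stands lower, and Nr3c2 and Ghr overlap.

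The knockout libraries can be compared with each other under the same software header. Pd-KO over Mgp-KO gave log2 ratios of 0.85 (Esr1), 0.76 (Pgr), 0.53 (Nr3c1), 0.42 (Nr3c2), 0.94 (Prlr), 0.47 (Ghr), 0.03 (Thra), 0.14 (Thrb) and 0.37 (Insr) in stromal cells. None of the 9 was 2-fold different, where 2.72% of all genes were 2-fold higher and 4.43% 2-fold lower. The median of the longest quintile of genes was 0.25. Female cells were 79.6% of the sex-called stromal cells in Mgp-KO and 43.2% in Pd-KO, and the values differed by sex. In female cells 1 of the 9 was 2-fold higher, Prlr (1.05), where 2.89% of all genes were, while Pgr was at -0.14 (-0.35 to 0.07) and Thrb at -0.48 (-0.60 to -0.37). In male cells 1 of the 9 was 2-fold higher, Pgr (2.18, interval 1.87 to 2.51), where 3.1% of all genes were, and Thrb was at 0.98. This comparison was added after the data had been seen.

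Each library held cells of both sexes, which were told apart by Xist and Y-linked UMIs. Female cells took 47.5%, 79.6% and 43.2% of the sex-called stromal cells, so the libraries were not balanced. In Wild-type stroma Pgr was equal in both sexes within counting error, 1.19 CPM (0.856 to 1.62) in female and 1.12 (0.822 to 1.49) in male cells. In Mgp-KO it was higher in female cells, 14.1 (13.1 to 15.2) against 6.40 (5.16 to 7.85), and in Pd-KO it was higher in male cells, 29.0 (27.1 to 31.1) against 12.8 (11.4 to 14.4).

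The direction of the sex difference in Pgr was thus opposite in the knockout libraries. Over all genes 3.22% were 2-fold higher in the female cells of Mgp-KO and 0.479% 2-fold lower in those of Pd-KO. Pgr in Ccn5 fibroblast-like cells kept these directions, with 48.1 female against 19.7 male in Mgp-KO and 40.5 against 56.7 in Pd-KO, as did Pi16 progenitor-like cells with 19.2 against 7.38 and 15.4 against 30.7 CPM. Against Wild-type cells of the same sex Pgr was higher throughout, with log2 ratios of 3.57 (female) and 2.52 (male) in Mgp-KO and 3.43 and 4.70 in Pd-KO. In Pi16 progenitor-like cells of Wild-type Pgr was 3.88 in female (16 UMIs) and 0.984 in male cells (10 UMIs). Nr3c2 was higher in female stromal cells by 1.03 in Wild-type, 0.78 in Mgp-KO and 0.12 (-0.02 to 0.26) in Pd-KO on the log2 scale. Cells of 1 library share their mice, so these values do not show how mice of a sex varied.

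**Figure D4:**
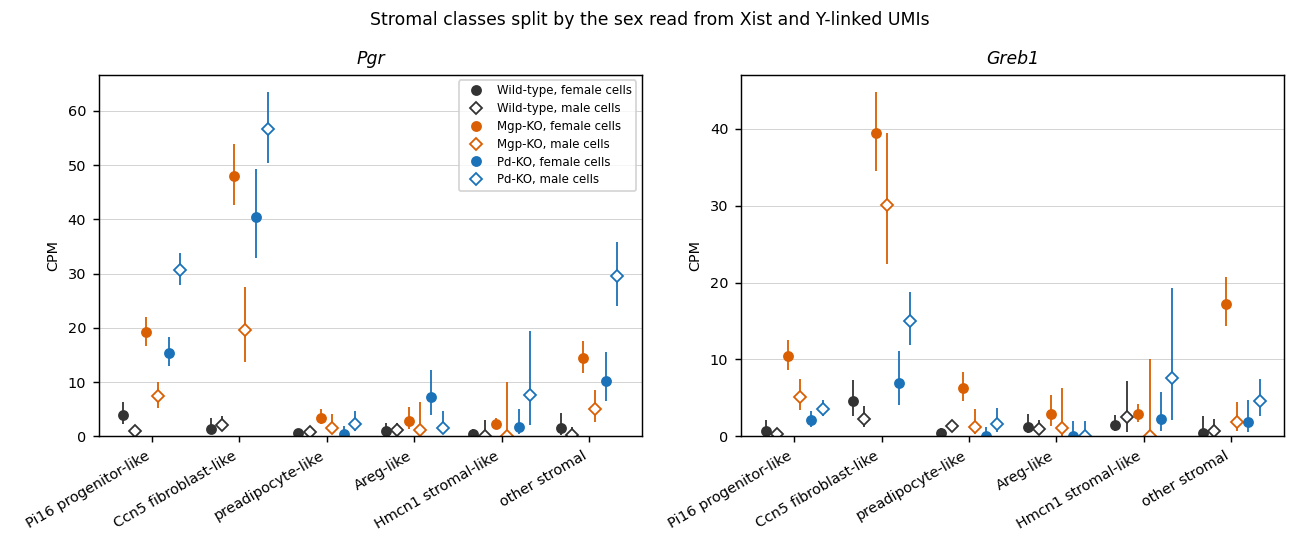
Pgr and Greb1 (CPM) in stromal classes split into female and male cells of each library, with 95% counting intervals. In Ccn5 fibroblast-like cells Pgr is 48.1 in female and 19.7 in male cells of Mgp-KO, and 40.5 and 56.7 in Pd-KO.

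Genes on which the receptors act, or which act on the receptors, were read from 8 lists. The counts that follow stand against 18.1% of all genes 2-fold higher and 2.6% lower in Mgp-KO, and 21.2% and 4.96% in Pd-KO. Of the estrogen and progesterone targets 9 could be compared; 1 was 2-fold higher and 1 lower in Mgp-KO (median 0.27, against 0.16 over all genes) and 1 higher and 2 lower in Pd-KO (median -0.45, against 0.20). The gene that was higher was Greb1, an estrogen-induced gene, by 3.15 in Mgp-KO and 1.68 in Pd-KO, or 2.18 and 0.54 more than genes of its span. In Ccn5 fibroblast-like cells Greb1 stood at 2.94, 30.4 and 10.6 CPM, against 1.14, 10.1 and 3.65 in all stromal cells. Areg, which encodes the growth factor amphiregulin, was at 2.96, 0.791 and 0.124 CPM in stroma, while the Upk3a luminal cells held 2127, 1852 and 999.2. Myc was lower in Pd-KO (-1.03). Wnt4, a paracrine signal of progesterone in the mammary gland, had a log2 ratio of -0.77 in Mgp-KO and did not reach the fold.

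The glucocorticoid and mineralocorticoid targets were lower in Pd-KO. Of 14 compared, 9 were 2-fold lower and 1 higher in Pd-KO over Wild-type, with a median log2 ratio of -1.43, where 4.96% of all genes were 2-fold lower and the median of all genes was 0.20, whereas in Mgp-KO 1 was lower and 2 were higher, with a median of 0.34. The lowest ratios in Pd-KO were those of the metallothionein genes Mt2 (-2.33) and Mt1 (-2.16) and of Ddit4 (-2.27), an inhibitor of growth signalling through mTOR. In Mgp-KO the largest differences were Zbtb16 (2.57), Errfi1 (1.85) and Angptl4 (-1.45). The median of the list in Pd-KO over Wild-type was below 0 in 15 of 15 classes, from -1.45 to -0.41. Against Mgp-KO, which shares the software header, 11 of 14 were 2-fold lower in Pd-KO stroma (4.43% of all genes) and the median was -1.72. Nr3c1 itself had a log2 ratio of 0.84 in Pd-KO over Wild-type stroma. Genes of about 110 kb, near its span, had a median of 1.16. The part of the Nr3c1 level in the lower targets was not tested.

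Immediate early and heat shock genes, which respond to stress within a short time, were lower beside this list. Of 12 such genes, chosen after values had been seen, 11 were 2-fold lower in Pd-KO over Wild-type stroma (median -1.62), where 4.96% of all genes were, among them Hspa1a by -3.63 and Fos by -1.28. Within stromal classes the count varied. It was 4 of 12 in Pi16 progenitor-like cells (median -0.63), where 1.74% of all genes were 2-fold lower. In other stromal cells it was 11 of 12 (median -1.68), against 2.99% of all genes. In Mgp-KO 1 of 12 was 2-fold lower (median 0.12), where 2.6% of all genes were, and 12 of 12 were 2-fold lower in Pd-KO over Mgp-KO, where 4.43% of all genes were. Their part in the lower glucocorticoid targets was not tested.

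**Figure D5:**
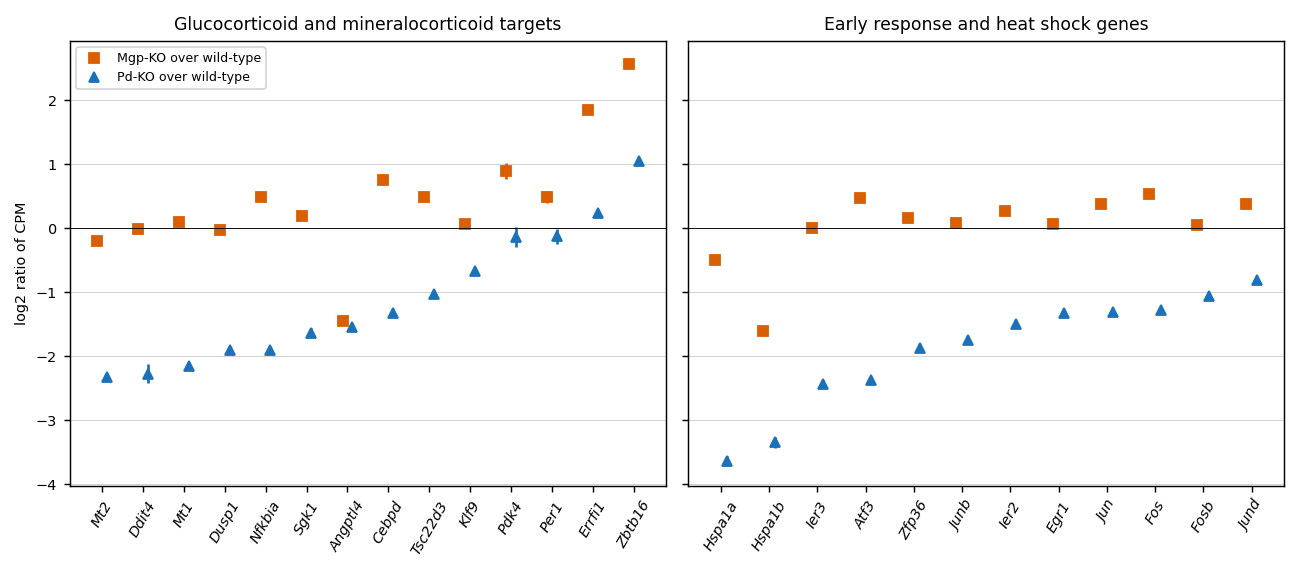
The log2 ratio over Wild-type in stromal cells (CPM) of the glucocorticoid and mineralocorticoid targets and of the early response and heat shock genes, for Mgp-KO and Pd-KO. In Pd-KO 9 of 14 targets and 11 of 12 early response genes are 2-fold lower, and in Mgp-KO 1 of each.

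Among the other hormone receptors 15 could be compared, with 2 higher and 2 lower in Mgp-KO and 5 and 2 in Pd-KO (medians 0.00 and 0.15). Shares of all genes were 18.1% higher and 2.6% lower in Mgp-KO and 21.2% and 4.96% in Pd-KO, so 2 of 15 higher was below the share of all genes. The retinoic acid receptor gene Rarb was higher in both (2.52 and 3.13), as were the oxytocin receptor gene Oxtr (2.27) and Igf1r (2.20) in Pd-KO, while Gper1, a membrane receptor for estrogen, and Rxrg were lower in Mgp-KO (-2.38 and -1.97). Rarb was 0.11 and 0.40 above genes of its span, and Igf1r 0.06 in Pd-KO. Pparg, the master factor of adipocyte formation, was highest in Gpihbp1 endothelial-like cells of Wild-type and Pd-KO, at 275 and 705 CPM, and in pericyte-like cells of Mgp-KO, at 683. Adipor1 was highest in Gpihbp1 endothelial-like cells in all 3 libraries.

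Enzymes and transporters that set how much hormone reaches a receptor gave 4 higher and 1 lower of 15 in Mgp-KO and 3 higher and 2 lower of 14 in Pd-KO (medians 0.14 and -0.13), and the higher counts were near the 18.1% and 21.2% of all genes. Hsd11b2, which inactivates glucocorticoids, was lower (-1.44 and -1.65 on the log2 scale) and was highest in the Fgf10 stromal-like cells of all 3 libraries (95.3, 47.1 and 56.9 CPM). Akr1c18, which inactivates progesterone, was higher by 1.22 and 1.56 in the pooled stroma and was highest in Pi16 progenitor-like cells at 607, 810.4 and 801 CPM. Within that class it differed less between libraries than in the pooled stroma. The class took 13.9%, 26.6% and 32.8% of cells, and its part in the pooled ratios was not tested. The thyroid hormone transporter gene Slco1c1 was higher by 2.44 and 2.32, and Slc16a10 by 2.06 in Mgp-KO.

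Chaperones and coregulators of nuclear receptors gave 4 higher and 0 lower of 15 in Mgp-KO and 4 and 1 in Pd-KO (medians 0.39 and 0.44), against 18.1% and 21.2% of all genes higher. The coactivator genes Ncoa2 (2.22 and 2.78) and Ncoa1 (1.90 and 2.21) led, and both came within 1 log2 unit of genes of their span (0.61 and 0.91 for Ncoa2, 0.19 and 0.28 for Ncoa1). Fkbp5, a chaperone induced by glucocorticoids, was 30.8, 86.0 and 29.4 CPM. Hsp90aa1, a chaperone of steroid receptors, was lower in Pd-KO (-1.33). Relative to genes of their span 0 of the list were 2-fold higher in either knockout.

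Growth hormone and prolactin signalling gave 1 higher and 1 lower of 12 in Mgp-KO and 2 of each in Pd-KO (medians 0.62 and -0.21). Stat5b, the transducer of both receptors, was higher by 1.36 and 1.97. Socs3, a feedback inhibitor, was lower in Pd-KO (-1.87), and Cish, another one, had 7.23, 14.4 and 4.03 CPM. Csn3, a milk protein gene, was at 1.45, 0.207 and 0.0465 CPM in stroma, against 3131 and 1558 in Wfdc18 luminal cells of Wild-type and Mgp-KO.

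Thyroid hormone targets gave 1 higher and 1 lower of 7 in each knockout (medians 0.07 and 0.12). Thrsp, a lipogenic gene, was lower in both (-1.44) and was highest in Plvap endothelial-like cells (303, 325 and 171 CPM). Ppargc1a was higher in Mgp-KO (1.63) and Hr in Pd-KO (1.19). Insulin signalling gave 5 higher and 1 lower of 19 in Mgp-KO and 8 and 1 in Pd-KO (medians 0.58 and 0.91), against 18.1% and 21.2% of all genes higher, and relative to genes of their span the medians were 0.02 and 0.08. Slc2a4, the insulin-regulated glucose transporter, was lower (-1.81 and -1.47).

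Genes whose pattern was most like that of a receptor were found by correlating log2(CPM + 10) over 49 points, each a class of at least 50 cells in a library, among 11906 genes. The points share libraries, so that the difference between libraries enters, and the correlations are descriptions. Pgr was most like Tmem30b (r = 0.93) and, with the mean of each library taken off, like Krt19 (0.91) and Stc2 (0.90) as well. Prlr was most like Slc44a3 (0.89), Rbm47 (0.88) and Cdo1 (0.87), and Esr1 like Meis1 (0.91), a homeobox gene. Nr3c1 was most like Rgl1 (0.86) and Hspg2 (0.85), the gene of the basement membrane protein perlecan. Among the 3 genes most like Nr3c2 were Cdk8 (0.91) and Mllt10 (0.91). Ghr was most like Zfpm2 (0.93), Thra like Rab11fip2 (0.84), Thrb like Dapk1 (0.90) and Insr like Dlc1 (0.85).

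With the library means taken off, the most like gene was the same for 6 of the 9 receptors. It changed for Nr3c1, to Mxd4 (0.86), for Ghr, to Igf1 (0.86), the growth factor that growth hormone induces, and for Insr, to Fam117a (0.65). Among the receptors themselves, over the same points, Pgr and Prlr went together (0.65), Ghr and Thrb went together (0.74), and Nr3c1 ran against both Pgr (-0.80) and Prlr (-0.71).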

How the data were processed

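Single-cell RNA was sequenced from 3 inguinal SVF libraries. The authors deposited raw counts of UMIs per gene and barcode for each library. Per the submitters' processing notes reads were processed with Cell Ranger 6.1.1 on GRCm39, whereas the study's methods give mm10 with default parameters and the matrix headers name versions 4 and 7.1.0; whether intronic reads were counted is not otherwise given in the sources used here. From these counts, barcodes with at least 2000 UMIs and at most 10% mitochondrial UMIs were kept (426, 4 and 187 barcodes were removed for the latter in Wild-type, Mgp-KO and Pd-KO). Total counts were 184102026, 93212243 and 83942865 UMIs. Doublets were scored by simulation and called above 0.25 (5.22%, 4.06% and 4.18% of cells) but kept, and results were recomputed without them.

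Cells were normalized, integrated over libraries with Harmony (30 components, 2000 variable genes) and clustered with the Leiden method into 32 clusters, leaving the receptors, pathway genes, Mgp and sex-linked genes out of the features. Clusters were named from marker lists. UMIs were summed per class and library. Intervals at 95% were exact Poisson for levels, Clopper-Pearson for shares, conditional binomial for ratios and a normal approximation for differences of log ratios; they cover counting error only. A gene was called at a 2-fold ratio with at least 100 UMIs over both libraries. Shares of cells were taken after thinning each cell to 2000 UMIs, which left out no cell. Spans were taken from GENCODE M21 on GRCm38, which matched 32235 of 32285 genes. Promoter windows came from a RefSeq table.

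The members and lists were chosen with earlier results of these data known. All 9 receptors were named, with the 3 genes most like each, and in each list the 3 genes of largest absolute ratio in either knockout and the top class of the 3 most abundant. Some genes that this rule names are not reported here. The comparison between knockouts, the comparison of stromal with luminal ratios, the early response genes and the split of Pgr and Greb1 by sex were added after values had been seen. The scripts were tested on simulated data and used Python 3.11.15, scanpy 1.11.5, leidenalg 0.10.2, scipy 1.17.1, numpy 2.4.6 and pandas 2.3.3. Alternatives were another depth and mitochondrial limit, equal weight of cells or of stromal subsets, separate clustering, each sex alone, other size factors, another fold, unthinned cells, no doublets and a span correction.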

Additional observations from a re-analysis of the deposited data

Results flagged for a closer look

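In 4 cases the log2 ratio of a receptor over Wild-type had opposite signs in different classes of the same libraries with both 95% counting intervals clear of 0. The classes of highest and lowest ratio are given, and these differences were not tested. Prlr in Mgp-KO was 0.65 in Upk3a luminal and -2.78 in cycling cells. Prlr in Pd-KO was 2.64 in Fgf10 stromal-like and -2.14 in Schwann-like cells. The Schwann-like levels were 36.4 CPM in Wild-type (169 cells) and 8.29 CPM in Pd-KO (53 cells). Both were below free RNA, at 42.6 and 130.1 CPM, and the Pd-KO level rests on few UMIs. The part of free RNA in this Schwann-like ratio was not tested. Thra in Mgp-KO was 0.45 in early adipocyte-like and -0.13 in other stromal cells. Thra in Pd-KO was 0.73 in early adipocyte-like and -0.31 in pericyte-like cells.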

How the results depend on the processing

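No paired analysis was possible because each genotype had 1 library and the labels give no shared replicate numbers. With the median of genes of like span taken off, the receptors past 2-fold went from 6 to 3 in Mgp-KO and to 4 in Pd-KO. The ratio of Esr1 changed sign, to -0.65 and -0.11, and so did that of Prlr in Pd-KO. The ratios of Nr3c1 were also below the medians of genes of about 110 kb in both knockouts. With Mgp-KO in place of Wild-type 0 receptors passed in Pd-KO, a comparison added after seeing the data. A 1.5-fold limit gave 7 in each, and the other settings gave 6. With each stromal subset at the same weight the log2 ratio of Pgr was 2.16 in Mgp-KO and 2.67 in Pd-KO. The cause was not tested. Ratios of genotypes rest on single libraries, and levels near 1 CPM in Wild-type stroma are set by few UMIs.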
